A study of Mus musculus with 18 samples.

Results

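The comparison described here is the addition of LPS to wild-type dendritic cells that were also given IL-10 and TGF-β. It sets the 3 libraries labelled with LPS and both cytokines against the 3 labelled with both cytokines and no LPS, which are 6 of the 18 libraries in the series. Treatment labels alone chose them, with no measured value. The other libraries are 3 wild-type libraries in medium, 3 wild-type libraries with LPS alone, and 6 libraries from mice that lack Bat3 (Bag6) in CD11c-expressing cells. All cells of the wild-type libraries were bone marrow-derived dendritic cells from C57BL/6 mice, grown from bone marrow with GM-CSF, treated for 8 h and sorted as live cells high in CD11c before RNA extraction. Both groups compared carry IL-10 and TGF-β, so what separates them is LPS; the doses and whether the cytokines were added before LPS are not given in the sources used here. The labels do not tie the 3 libraries of a group to different mice or cultures. The p-values therefore measure only the spread between libraries within groups, which may be technical. This spread was estimated jointly over all 18 libraries, including the 6 from mice that lack Bat3. The labels speak of 5 biological replicates, while 3 libraries per group were analysed here. GM-CSF cultures hold macrophage-like cells beside dendritic cells, and both carry CD11c. In bulk RNA of this kind fewer cells of a type and less RNA per cell cannot be told apart.

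LPS, a component of the outer membrane of Gram-negative bacteria, is sensed by TLR4 with CD14 and MD-2. The adaptor MyD88 leads from there to NF-κB and MAP kinases and to inflammatory cytokines, and the adaptor TRIF leads to IRF3, interferon β and, through its receptor, to interferon-stimulated genes. IL-10 acts through STAT3 and restrains the cytokine output of myeloid cells, while TGF-β acts through SMAD proteins; dendritic cells exposed to the pair are often called tolerogenic because they stimulate T cells poorly.

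Total expected counts per library were between 9948715 and 12068759 in the 6 libraries, and 11876 of the 23420 genes listed passed the filter on low counts. Levels are given below as CPM (the usual depth-scaled count, here also scaled for library composition), and a gene is said to have risen or fallen where edgeR's quasi-likelihood test gave a Benjamini-Hochberg adjusted p under 0.05 over all genes tested. In a principal component analysis of the 12 wild-type libraries, the first component held 52.5% of the variance and put the cytokine libraries (13.7 to 28.5) between the medium libraries (55.8 to 66.2) and the LPS libraries (-51.7 to -37.2), with the cytokine-plus-LPS libraries at -36.6 to -33.5. The second component, with 31.6%, separated libraries with cytokines (-38.8 to -22.7) from those without (16.5 to 44.0). One library of the cytokine group, replicate 1, stood apart in genes of mature dendritic cells: 37 genes were at least 4-fold above both other libraries of its group, against 5 and 2 in those libraries, and they included 7 of the 24 tested genes of mature migratory dendritic cells. Among the medium libraries, replicate 3 had 71 genes at least 4-fold below both others, 9 of them of that list. The main results that rest on cytokine replicate 1 are given with and without it. Values for LPS alone, and differences between the 2 LPS responses, are given with medium replicate 3 included.

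Of the dendritic cell genes described first, Itgax fell when LPS was added. For Zbtb46, Batf3, Sirpa and Irf8 the libraries of the 2 groups overlapped. Zbtb46, one of 13 genes below that were named after their values were seen, is a transcription factor of conventional dendritic cells; it was at 2.62, 1.44 and 1.32 CPM with cytokines and at 1.52, 1.83 and 0.503 CPM with LPS added, against 17.2 ± 4.59 CPM (SD, n = 3) in medium. Itgax, which encodes CD11c, was at 393, 415 and 336 CPM with cytokines and at 260, 286 and 254 CPM with LPS added, a fall of 0.51 ± 0.13 (SE) on the log2 scale (adjusted p = 0.0026, edgeR). Batf3, a factor of type 1 conventional dendritic cells, was at 0.846 to 3.98 CPM with cytokines and 2.22 to 2.33 CPM with LPS added, while Sirpa, a surface protein of type 2 cells and macrophages, was at 782 to 884 CPM with cytokines and 882 to 989 CPM with LPS added, and Irf8 at 85.2 to 107 CPM with cytokines and 103 to 122 CPM with LPS added; these 3 were picked as examples of low and high levels. Of 24 tested genes of dendritic cell lineages, 4 rose and 9 fell (2 and 6 without cytokine replicate 3). Clec10a and Mgl2 of this list were lower in every library with LPS added, with means of 2.45 and 13.05 CPM. Their means with cytokines were 10.96 and 62.3 CPM. Relb of the same list was higher in every library with LPS added (mean 87.0 CPM, against 45.5 CPM with cytokines). Of 21 macrophage genes 4 rose and 6 fell. Over all genes tested 23.9% rose and 23.1% fell. The macrophage counts lay near these shares and are no result about that list. The 17 neutrophil markers together were at 7059 to 10100 CPM with cytokines and at 6587 to 7761 CPM with LPS added; without Lcn2, which LPS raises in many myeloid cells, they were at 6632 to 9454 and at 3912 to 4772 CPM, against 909 to 1456 CPM in medium. Summed markers of mast cells were at 41.3 to 67.9 and 25.3 to 49.5 CPM, of plasmacytoid dendritic cells at 61.1 to 67.1 and 51.5 to 62.7 CPM, and of stromal and endothelial cells at 127 to 146 and 192 to 217 CPM, most of it Pecam1. Markers of T and NK cells summed to at most 7.08 CPM, of B cells to at most 1.44 and of erythroid cells to at most 2.24 CPM, with Cd3e, Cd3g, Cd4, Pax5 and Ebf1 at 0 in all 6 libraries. Of the 17 neutrophil markers 1 rose, 3 fell and 13 did not pass the test, shares below those of all genes. Their sum without Lcn2 was lower with LPS added, and the part of this list in the results below was not tested.

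Adding LPS to the cytokines changed 5575 of the 11876 genes tested, or 46.9%, of which 2836 (23.9%) rose and 2739 (23.1%) fell. A change of at least 2-fold was seen in 753 genes that rose (6.34%) and 940 that fell (7.92%). The libraries of the groups did not overlap for 7149 genes (60.2%), and for 5451 (45.9%) they did not overlap and the test passed. Interferon-stimulated genes, glycolytic enzymes and genes of iron and haem metabolism rose. For several lists the shares that rose and fell lay near those of all genes, and their counts are no result about the list. Examples are inflammatory cytokines, growth factors, mature dendritic cell genes, macrophage genes, class II genes and acute phase proteins. Counts of every list are to be read beside the shares of all genes. With LPS alone 29.8% of all genes rose and 28.9% fell, and list counts for LPS alone are to be read beside these. Genes of the cell cycle, Myc, ribosome biogenesis and ribosomal proteins fell, and several chemokine and cytokine genes that rose with LPS alone fell, such as Tnf and Ccl4. The split between rises and falls depends on the scaling: on log2(TPM + 1) with limma, where the median of all genes lay at -0.115, 1919 genes rose and 3462 fell.

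Serum amyloid A genes, which encode acute phase apolipoproteins, headed the rises. Saa3 was at 325, 334 and 198 CPM with cytokines and at 6013, 5095 and 5616 CPM with LPS added, 19.5-fold higher (log2 fold change 4.29 ± 0.29, SE, adjusted p = 2.1e-08, edgeR). Saa1 went from 0.388, 0.338 and 0.329 CPM to 48.6, 38.0 and 39.1 CPM, a log2 fold change of 6.85 ± 0.29; in medium it was at 0 in all 3 libraries, and with LPS alone 1 count was assigned to it in the 3 libraries together. No library of one group overlapped those of the other for either gene. The 15 largest rises also held Slc1a2, a glutamate transporter, at 3.38 ± 1.91 and 55.7 ± 5.63 CPM (SD, n = 3), Vnn3, a pantetheinase, Slamf1, a receptor of the SLAM family, Il1f6, which encodes IL-36α, and Ddit4, an inhibitor of mTORC1 (2.76 ± 0.264 and 29.4 ± 2.19 CPM). Further members were Ptges, the prostaglandin E synthase, at 34.3, 31.2 and 18.3 CPM with cytokines and 266, 245 and 178 CPM with LPS added, Pfkfb3, an activator of glycolysis, Hyal1, a hyaluronidase, Phlda3, Ypel2, Gp6 and Tmem140. H2-K2 belongs to a family of near-identical class I genes among which reads can be split, and its log2 fold change of 3.39 ± 0.25 is uncertain for that reason.

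**Figure D1:**
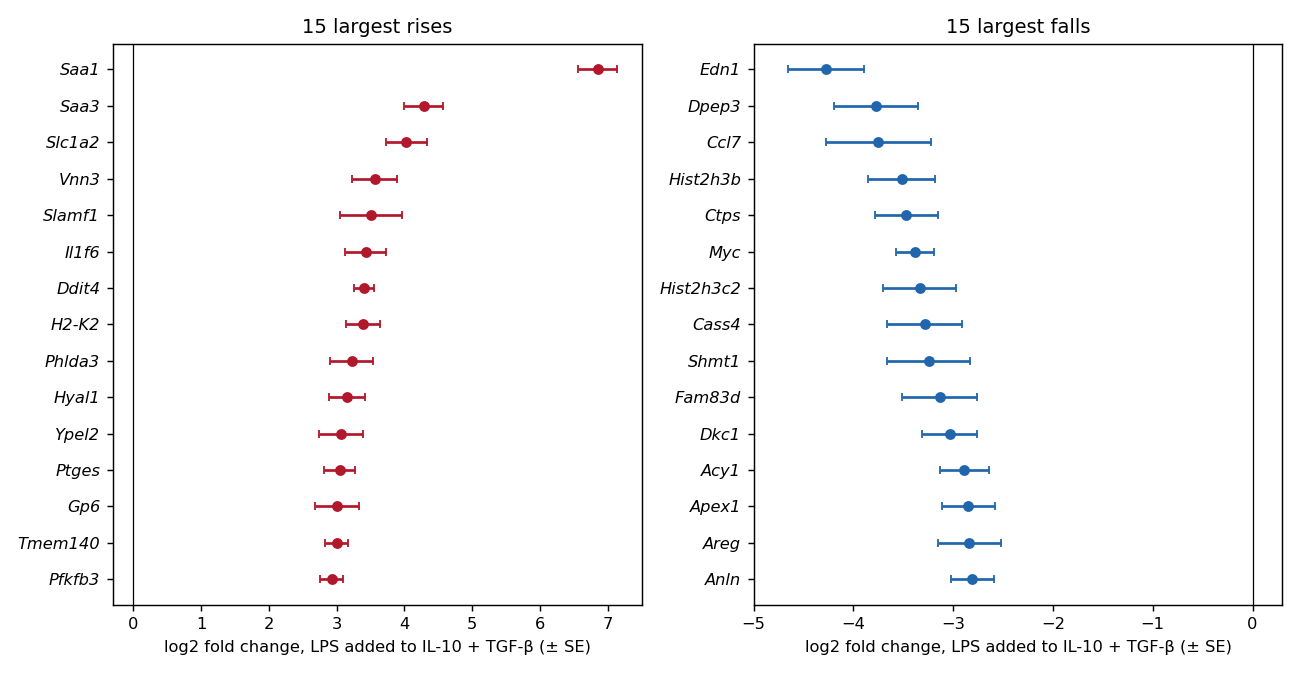
Log2 fold change (x axis, with its SE as bars) of the 15 genes with the largest rises and the 15 with the largest falls when LPS was added to IL-10 and TGF-β, among genes that passed the test, whose libraries did not overlap and whose log2 CPM averaged 2 or more. Saa1 and Saa3 head the rises at 6.85 and 4.29, and Edn1 heads the falls at -4.28.

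Promoters of the largest rises were searched for binding motifs, because these genes are the ones that separate the groups most. In windows of 300 bases (250 before and 50 after the start of transcription, RefSeq, GRCm38.p6), a κB motif (GGNNTTTCC, either strand) or an interferon response element (TTTCNNTTT, either strand) was found for 3 of the 13 genes with a window. Their windows are printed 5′ to 3′ on the gene's strand, with the matched letters in capitals. They lie at chr7:46715627-46715926 (minus strand, Saa3, with one κB motif and one interferon response element), chr10:23851212-23851511 (plus strand, Vnn3, one interferon response element) and chr6:34862896-34863195 (plus strand, Tmem140, 2 overlapping interferon response elements).
Saa3: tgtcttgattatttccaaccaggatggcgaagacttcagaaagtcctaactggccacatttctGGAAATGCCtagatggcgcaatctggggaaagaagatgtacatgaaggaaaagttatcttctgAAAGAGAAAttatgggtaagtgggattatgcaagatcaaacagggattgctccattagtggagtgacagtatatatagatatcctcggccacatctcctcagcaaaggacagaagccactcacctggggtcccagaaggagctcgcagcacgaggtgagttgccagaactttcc
Vnn3: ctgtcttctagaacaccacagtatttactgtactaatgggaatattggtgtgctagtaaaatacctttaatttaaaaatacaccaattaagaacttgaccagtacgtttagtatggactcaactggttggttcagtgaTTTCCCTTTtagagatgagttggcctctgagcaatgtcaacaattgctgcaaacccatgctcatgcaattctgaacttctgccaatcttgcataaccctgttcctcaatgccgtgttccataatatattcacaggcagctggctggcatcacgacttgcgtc
Tmem140: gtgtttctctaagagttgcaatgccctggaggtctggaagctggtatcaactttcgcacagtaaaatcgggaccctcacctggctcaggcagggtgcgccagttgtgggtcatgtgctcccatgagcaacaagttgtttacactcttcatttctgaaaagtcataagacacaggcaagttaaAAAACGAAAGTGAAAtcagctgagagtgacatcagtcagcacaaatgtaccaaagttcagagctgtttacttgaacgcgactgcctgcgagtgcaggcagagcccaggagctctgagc
The interferon response element was in 10.13% of the windows of all genes that rose, 8.08% of those that fell and 8.29% of those of all genes tested. For the κB motif these shares were 6.2%, 5.55% and 6.09%. The STAT motif TTCNNNGAA (7.36%, 7.12% and 7.07%) and the AP-1 motif TGANTCA (6.83%, 4.66% and 5.52%) were in none of the windows of the largest rises. A match describes letters, not a bound site.

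Among the falls, Edn1, which encodes the vasoconstrictor peptide endothelin-1, changed most. It was at 17.5, 22.1 and 18.6 CPM with cytokines and at 0.627, 1.35 and 1.01 CPM with LPS added, 19.4-fold lower (adjusted p = 3.5e-08, edgeR). Myc, a transcription factor of growth and proliferation, was at 81.3, 88.2 and 94.8 CPM and at 7.53, 8.29 and 9.55 CPM, a fall of 3.38 ± 0.19 (SE) on the log2 scale. Ccl7, a chemokine for monocytes, fell from 24.1 ± 7.5 to 1.76 ± 1.13 CPM (SD, n = 3), and Areg, an EGF receptor ligand, from 12.3 ± 2.59 to 1.7 ± 0.475 CPM. The other largest falls included Ctps (CTP synthase), Shmt1 (serine hydroxymethyltransferase), Dkc1 (dyskerin), Apex1 (a DNA repair endonuclease), Fam83d and Anln (mitosis and cytokinesis). Ctps, for example, was at 14.7, 14.7 and 21.6 CPM and at 1.43, 1.45 and 1.71 CPM. Cass4, Acy1 and the dipeptidase Dpep3 were also among them; Hist2h3b and Hist2h3c2 were as well, but they encode near-identical histones between which reads may be split.

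Abundant transcripts changed as well. The ferritin chains Fth1 and Ftl1 rose 2.18-fold and 1.63-fold, Fth1 from 17805 ± 1781 to 38813 ± 1972 CPM (SD, n = 3). The lysosomal protease gene Ctsd rose from 8199 ± 597 to 12388 ± 748 CPM, and B2m, the light chain of class I molecules, from 3918 ± 726 to 6056 ± 435 CPM. Actb and Actg1, the cytoplasmic actins, fell 2.12-fold and 1.58-fold, Actb from 9298, 9497 and 10737 CPM to 5191, 4846 and 3910 CPM. Ccl6, Eef1a1, Lyz2 and Tmsb4x fell by 0.84, 0.63, 0.51 and 0.42 on the log2 scale. Libraries of the 2 groups did not overlap for any of these 10 genes.

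**Figure D2:**
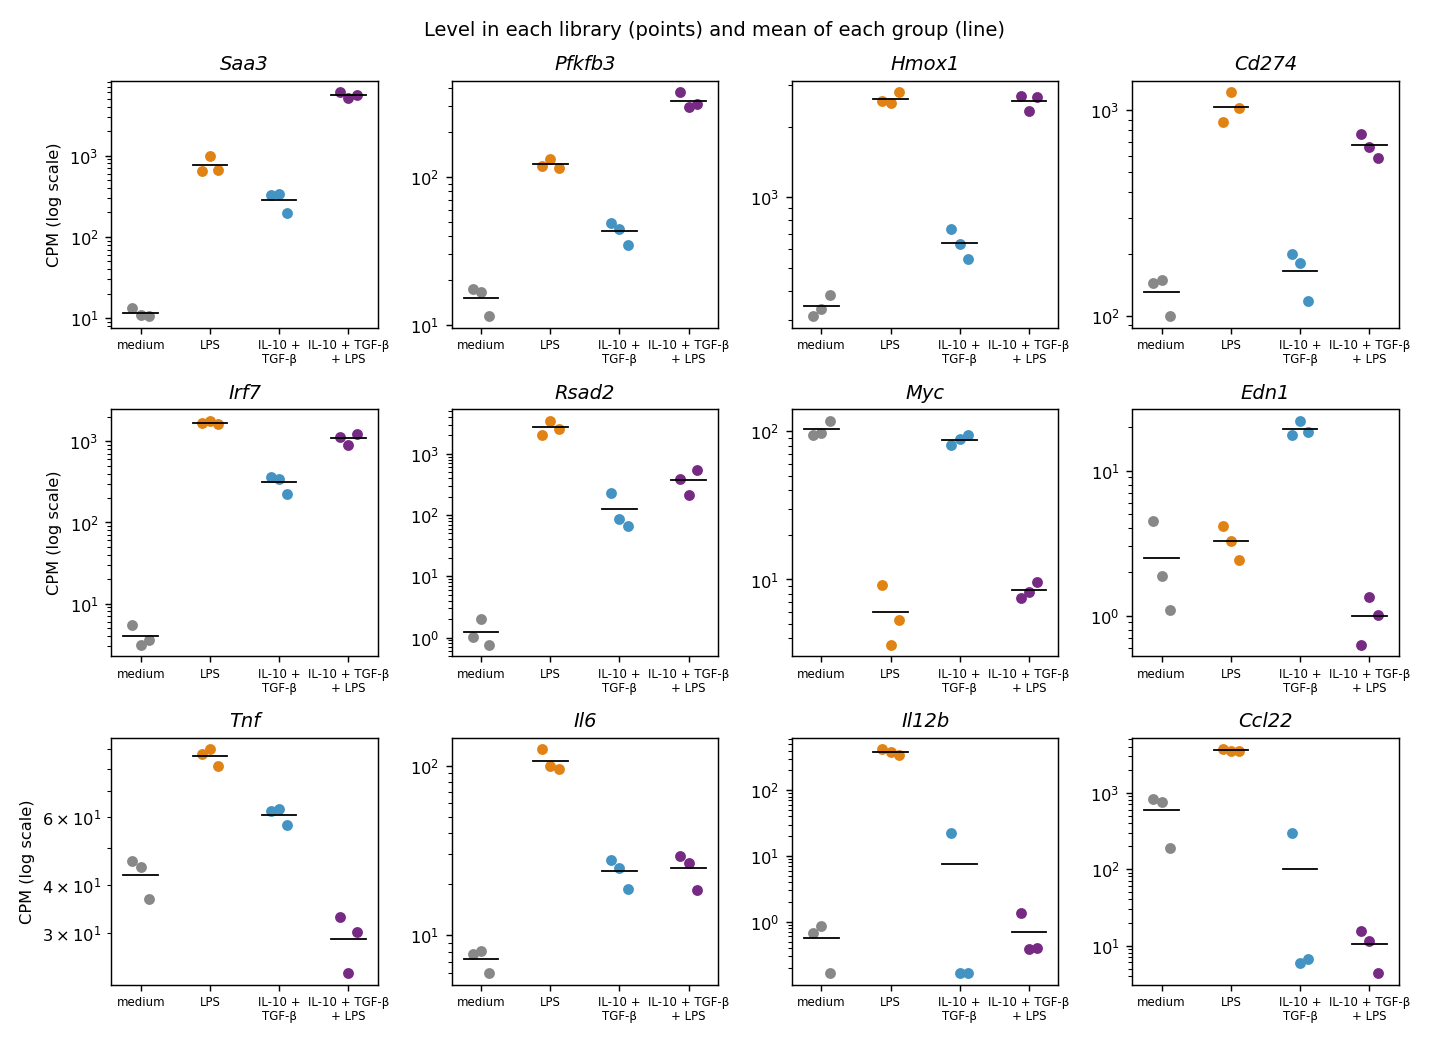
Level in CPM (log axis) of 12 genes in each wild-type library, with 3 points per group and a line at the group mean, for medium, LPS, cytokines, and cytokines with LPS. Saa3, Pfkfb3, Hmox1, Cd274, Irf7 and Rsad2 have higher means with LPS under both conditions, whereas Tnf, Il12b and Ccl22 have a higher mean with LPS alone and a lower one with LPS on top of the cytokines, where Il6 has means of 23.8 and 24.8 CPM; the cytokine group's replicate 1 is far above its 2 neighbours for Il12b and Ccl22.

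The receptor and its adaptors came first in the order of signalling. Of 25 tested genes of the TLR4 receptor complex and its adaptors, 13 rose and 3 fell (median log2 fold change 0.32, against -0.002 over all genes tested; 12 and 1 without cytokine-plus-LPS replicate 2). Tlr4 itself was at 193, 217 and 182 CPM with cytokines and at 230, 238 and 235 CPM with LPS added, a log2 fold change of 0.25 ± 0.11 (SE) that did not pass the test (adjusted p = 0.065, edgeR). Cd14, the LPS co-receptor (named after its values were seen), was at 939 ± 138 and 965 ± 142 CPM. Irak3, an inhibitory kinase-like member of the complex, rose 2.75-fold, from 65.0, 53.5 and 52.1 to 174, 147 and 148 CPM. Traf3, Traf6 and Ticam2, which encodes the bridging adaptor TRAM, rose 2.31-fold, 1.94-fold and 2.26-fold. All 4 are genes that rose with LPS alone too.

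Genes of the NF-κB pathway were more often higher than lower. Of 28 tested genes of NF-κB subunits, IκB proteins and feedback, 15 rose and 1 fell (median 0.48), against 26 rises and no fall with LPS in cells without cytokines (median 1.03). Tnfaip3, which encodes the ubiquitin editor A20, was at 128, 126 and 99.0 CPM and at 314, 252 and 246 CPM; Nfkbia, which encodes IκBα, went from 643 ± 55.2 to 1215 ± 101 CPM (SD, n = 3), Tnip1 from 57.9 ± 1.25 to 115 ± 5.42 CPM and Traf2 from 23.1 ± 1.6 to 58.9 ± 7.46 CPM. Ikbkg, the regulatory subunit of the IκB kinase, rose 2.17-fold. The 1 fall was Nfkbid, an atypical IκB protein named after its values were seen, with a log2 fold change of -0.79. Nfkbiz, also named after its values were seen, is an atypical IκB that is needed for part of the LPS response; it was at 57.3 ± 6.83 CPM with cytokines and at 60.5 ± 4.94 CPM with LPS added, where without cytokines it went from 15.4 ± 3.27 to 97.4 ± 15.2 CPM. The difference between these 2 responses was -2.58 ± 0.21 on the log2 scale (adjusted p = 1.4e-08 for the interaction term, edgeR). In the promoter windows of this list the κB motif was found in 31.25% of 32 windows, which belong to 23 genes. It was in 6.09% of the windows of all genes tested and 5.82% of all windows in the table.

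Fewer immediate-early factors rose than with LPS alone. Of 30 tested MAP kinase phosphatases and AP-1 and EGR factors, 9 rose and 9 fell, not far from the 23.9% and 23.1% of all genes. With LPS alone 20 rose and 4 fell. By the interaction test 18 of the 30 had a lower response with cytokines, for which the share over all genes was 12.1%. Egr2 was at 247, 245 and 232 CPM with cytokines and at 46.0, 47.8 and 47.9 CPM with LPS added, 5.11-fold lower, and Egr1 and Egr3 fell 2.04-fold and 4.76-fold. The orphan nuclear receptor gene Nr4a1, another immediate-early gene, fell from 87.3, 130 and 75.5 CPM to 15.6, 16 and 13.8 CPM. Jun rose 1.90-fold. Of genes named after their values were seen, Fos was at 455 ± 29.5 and 394 ± 19.6 CPM (SD, n = 3), and Zfp36, which encodes the mRNA decay factor tristetraprolin, at 188 ± 16.6 and 207 ± 11 CPM; neither passed the test, though Fos was called lower in a fit of the 6 libraries alone (adjusted p = 0.029, edgeR). Without cytokines both were at lower levels in medium, 22.2 ± 7.5 and 54.8 ± 10.6 CPM, and rose with LPS to 516 ± 78.7 and 386 ± 75.7 CPM.

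Of 25 tested inflammatory cytokine genes, 5 rose and 4 fell (median -0.14), no larger shares than the 23.9% and 23.1% of all genes. The count of rises is 10 without cytokine replicate 1, and 7 members fell against 4 that rose in a fit of the 6 libraries alone. With LPS alone 22 rose and 1 fell (median 2.31), against 29.8% and 28.9% of all genes. By the interaction test 22 of the 25 had a lower response with cytokines, against 12.1% of all genes. Tnf was at 62.3, 63.1 and 57.2 CPM with IL-10 and TGF-β and at 33.1, 23.6 and 30.2 CPM with LPS added, a fall of 1.07 ± 0.16 (SE) on the log2 scale (adjusted p = 2e-05, edgeR), where LPS alone raised it from 42.5 ± 5.02 to 86.4 ± 4.53 CPM (SD, n = 3). The 2 groups of libraries did not overlap. Il1b also fell, though not without cytokine-plus-LPS replicate 2 or 3 or cytokine replicate 2, from 1957 ± 313 to 1390 ± 107 CPM, with 377 ± 104 CPM in medium and 2047 ± 261 CPM with LPS alone. Osm, named after its values were seen, which encodes the IL-6 family member oncostatin M, fell from 554 ± 53.7 to 379 ± 49.5 CPM.

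Other cytokines did not pass the test or depended on 1 library. Il6 was at 27.8, 24.9 and 18.7 CPM with cytokines and at 29.2, 26.8 and 18.4 CPM with LPS added, and the groups overlapped; the log2 fold change was 0.06 ± 0.18 (SE), against 3.87 ± 0.19 for LPS alone. Il1rn, which encodes the IL-1 receptor antagonist and was named after its values were seen, was at 2848 ± 253 and 2440 ± 300 CPM (SD, n = 3), and at 3312 ± 616 CPM with LPS alone. Il12b encodes the p40 chain that IL-12 and IL-23 share. Its level was 22.7, 0.169 and 0.164 CPM with cytokines, the first value being replicate 1, and at 1.34, 0.385 and 0.402 CPM with LPS added. Its log2 fold change was -3.31 ± 1.41 (adjusted p = 0.072, edgeR) and 2.05 ± 0.73 (adjusted p = 0.031) without that library; with LPS alone it rose from 0.568 ± 0.358 to 381 ± 40.5 CPM. Il12a, the p35 subunit, was at 0.857 ± 0.699 and 1.83 ± 0.288 CPM; it did not pass the test with all libraries and had a log2 fold change of 1.97 ± 0.52 (adjusted p = 0.0045) without cytokine replicate 1. Il27 and Il10 were at 2.13 ± 0.953 and 0.133 ± 0.154 CPM with LPS added and did not pass the test either. Those that rose included Il23a (15 and 50 counts over the 3 libraries), Ebi3 (53.5 ± 5.7 to 89.8 ± 7.4 CPM), Tnfsf9, the ligand of 4-1BB (4.99 ± 0.484 to 18.7 ± 4.95 CPM), and Inhba, the activin A subunit, named after its values were seen, which went from 799 ± 190 to 1193 ± 73.4 CPM.

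Chemokines of the CC family fell more often than they rose. Of 17 tested CC chemokines and receptors, 2 rose and 9 fell (median -0.73; 4 and 8, median -0.25, without cytokine replicate 1), whereas 8 rose and 4 fell with LPS alone. Ccl4 was at 280, 321 and 240 CPM with cytokines and at 171, 133 and 151 CPM with LPS added, 1.85-fold lower; LPS alone raised it 4.15-fold. Ccl2, a monocyte attractant named after its values were seen, fell from 159 ± 37.6 to 41.2 ± 11 CPM (SD, n = 3) where LPS alone raised it from 95.7 ± 38.2 to 224 ± 101 CPM. Ccr2, the receptor of Ccl2 and Ccl7, fell 3.57-fold with the cytokines and also fell with LPS alone. Ccl3 was at 365 ± 39.4 and 369 ± 58.4 CPM, and the groups overlapped. Ccrl2, an atypical receptor that binds chemerin, rose from 116, 116 and 93.2 CPM to 347, 249 and 297 CPM.

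For 4 genes of this kind the value rests on the library that stands apart. Ccl22, a chemokine of mature dendritic cells, was at 292, 5.84 and 6.58 CPM with cytokines and at 15.5, 11.4 and 4.32 CPM with LPS added; its fall (log2 fold change -3.27 ± 1.23, SE, adjusted p = 0.045, edgeR) was 0.75 ± 0.65 (adjusted p = 0.39) without replicate 1. The groups overlapped, and the test was also missed without any 1 of the libraries with LPS added. Ccl17 was at 181, 23.6 and 38.6 CPM and at 13.5, 14.9 and 8.75 CPM, with a log2 fold change of -2.70 ± 0.65 and, without that library, -1.32 ± 0.36 (adjusted p = 0.01); in a fit of the 6 libraries alone it did not pass the test (adjusted p = 0.094), nor did Ccl22 (0.24). Ccl5 was at 501, 6.6 and 3.7 CPM and at 850, 522 and 881 CPM; it did not pass the test with all libraries (adjusted p = 0.19) and had a log2 fold change of 7.19 ± 0.89 (adjusted p = 5.7e-05) without replicate 1. Ccr7, the receptor that leads mature dendritic cells to lymph nodes, was at 85.3, 7.19 and 2.06 CPM and at 52.3, 33.1 and 17.7 CPM, a log2 fold change of 0.15 ± 1.04 with all libraries and 2.90 ± 1.01 (adjusted p = 0.038) without it. With LPS alone their levels were higher, for example 3590 ± 93.7 CPM (SD, n = 3) for Ccl22 and 1152 ± 94.6 CPM for Ccr7.

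CXC chemokines and their receptors rose or did not pass the test. Of 13 tested CXC chemokines and receptors, 6 rose and none fell. Cxcl10, which attracts CXCR3-bearing T cells, was at 44.2, 34.4 and 36.1 CPM and at 81.6, 46.0 and 92.1 CPM, a log2 fold change of 0.94 ± 0.29 (SE), against 7.61 ± 0.42 for LPS alone. The call of Cxcl10 was lost when 1 or another library was left out. Cxcl11 and Cxcl9 were at 4.55 ± 1.31 and 1.08 ± 0.517 CPM with LPS added (SD, n = 3). Cxcl16, a chemokine with a transmembrane form, rose 2.82-fold, and Cxcr4 from 1.28 ± 0.529 to 5.16 ± 0.389 CPM.

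Interferon-stimulated genes rose together, by less than in cells without IL-10 and TGF-β. Of the 50 tested, 46 rose and none fell, with a median log2 fold change of 1.12; all 50 rose with LPS alone, with a median of 4.88, and all 50 had a lower response with cytokines (difference called lower for 12.1% of all genes). For 48 of them every cytokine library without LPS was above every medium library, against 24.2% of all genes. With LPS, 40 of the 50 were higher in every LPS-only library than in every cytokine-plus-LPS library, against 27.0% of all genes, and 4 were lower in all. The median level over the list was 9.3 CPM in medium, 261 CPM with LPS, 70.4 CPM with cytokines and 146 CPM with cytokines and LPS.

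**Figure D3:**
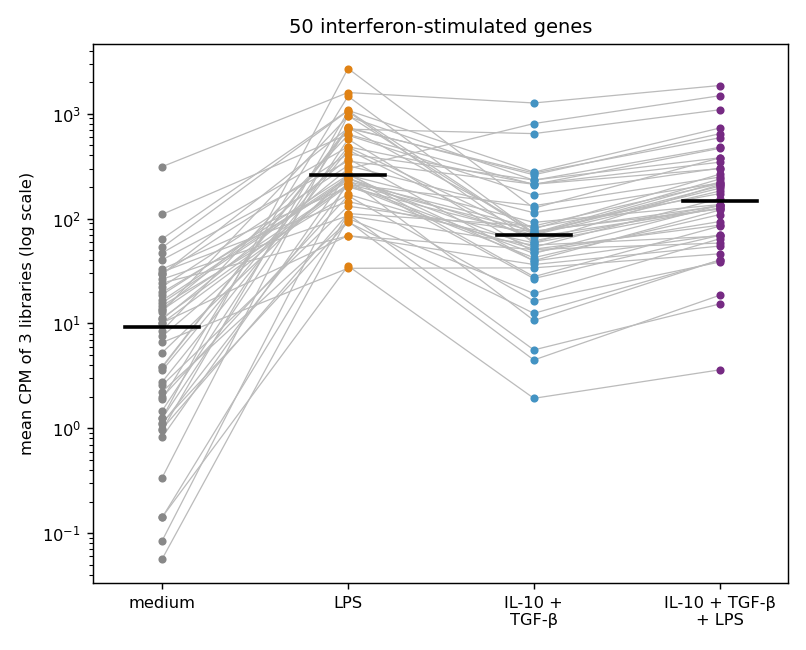
Mean level in CPM (log axis) of each of 50 interferon-stimulated genes in the 4 wild-type groups (points, joined by a line per gene), with a bar at the median. Medians are 9.3, 261, 70.4 and 146 CPM from left to right, so the cytokine group lies above medium and the step made by LPS is smaller there.

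Rsad2, which encodes the antiviral enzyme viperin, was at 225, 86.2 and 66.0 CPM with cytokines and at 384, 214 and 539 CPM with LPS added, with overlapping libraries and a log2 fold change of 1.59 ± 0.44 (SE, adjusted p = 0.0097, edgeR). In medium it was at 1.25 ± 0.64 CPM and with LPS alone at 2697 ± 724 CPM (SD, n = 3). Bst2, which encodes tetherin, rose 2.63-fold, Xaf1 2.91-fold, Dtx3l 2.62-fold and Zbp1, a sensor of Z-form nucleic acids, 2.12-fold, and none of their libraries overlapped. Ifit2 and Ifit3, which bind viral RNA, were at 72.8 ± 48.5 and 58.6 ± 36.7 CPM with cytokines and rose to 238 ± 69.9 and 211 ± 91 CPM. Oasl1, a member of the oligoadenylate synthetase family that restrains Irf7 translation, rose 2.69-fold, and Ms4a4c, Ifi44 and Apol9b rose by 1.94, 1.74 and 2.29 on the log2 scale. These genes were among those with the most negative differences between the responses, such as -9.98 ± 0.59 for Oasl1; Apol9b was at 0 in all medium libraries, and its difference depends on the prior count of the fit. In a fit of the 6 libraries alone Rsad2, Ifit2, Ifit3, Ms4a4c and Oasl1 kept their fold changes but did not pass the test, with adjusted p-values of 0.12, 0.071, 0.066, 0.087 and 0.06 (edgeR).

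The interferon response element was found in 61.36% of the 44 promoter windows matched to this list, which belong to 37 genes. It was in 8.29% of the windows of all genes tested and 10.55% of all windows in the table. Windows of 3 genes of the list that are among the most negative differences and hold a match are printed to show these letters, in capitals, at genes whose LPS responses differed. They are at chr5:114922990-114923289 (plus strand, Oasl1), chr12:26456403-26456702 (minus strand, Rsad2, with a κB motif as the last run of capitals) and chr3:151749861-151750160 (minus strand, Ifi44).
Oasl1: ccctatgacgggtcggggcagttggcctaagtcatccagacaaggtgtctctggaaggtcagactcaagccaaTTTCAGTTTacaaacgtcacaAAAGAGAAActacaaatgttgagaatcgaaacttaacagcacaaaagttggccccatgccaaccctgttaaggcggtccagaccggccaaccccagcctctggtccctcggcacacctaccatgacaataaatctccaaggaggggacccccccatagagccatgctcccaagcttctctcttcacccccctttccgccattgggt
Rsad2: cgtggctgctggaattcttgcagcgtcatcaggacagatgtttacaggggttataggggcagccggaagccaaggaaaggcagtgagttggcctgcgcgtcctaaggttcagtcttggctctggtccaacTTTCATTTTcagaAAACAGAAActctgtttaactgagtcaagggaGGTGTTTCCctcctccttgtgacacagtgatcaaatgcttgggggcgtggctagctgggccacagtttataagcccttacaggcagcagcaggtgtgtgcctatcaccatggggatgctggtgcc
Ifi44: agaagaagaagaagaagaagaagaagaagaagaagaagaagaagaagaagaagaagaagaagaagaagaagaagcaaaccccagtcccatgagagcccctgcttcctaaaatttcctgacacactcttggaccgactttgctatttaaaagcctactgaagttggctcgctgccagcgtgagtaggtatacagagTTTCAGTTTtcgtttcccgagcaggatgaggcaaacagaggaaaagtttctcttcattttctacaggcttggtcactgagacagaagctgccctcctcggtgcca

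The transcription factors of that pathway rose too. Of 22 tested interferon regulatory factors and STATs, 13 rose and none fell; on log2(TPM + 1) 9 rose and 2 fell. Irf7, the amplifier of type I interferon expression, was at 367, 340 and 227 CPM with cytokines and at 1119, 900 and 1252 CPM with LPS added, 3.5-fold higher, against 4.02 ± 1.25 CPM in medium and 1708 ± 90.4 CPM with LPS alone (SD, n = 3). The difference between the responses was -6.92 ± 0.26 (SE) on the log2 scale (adjusted p = 3.9e-13 for the interaction term, edgeR). Irf1 rose 3.00-fold and Ifngr2, an interferon γ receptor chain, 1.69-fold.

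Genes through which the added cytokines act were measured in both groups. Of 26 tested genes of the IL-10 receptor and STAT3 targets, 20 rose and none fell (median 0.62), against 21 rises and 2 falls with LPS alone. Stat3 was at 205, 209 and 200 CPM with cytokines and at 248, 253 and 232 CPM with LPS added, a log2 fold change of 0.26 ± 0.09 (SE) that missed the test without any 1 of the cytokine libraries. Pim3, a serine/threonine kinase, rose 2.88-fold and Tnfrsf1b, which encodes TNF receptor 2, 2.51-fold. Socs3, the STAT3-induced inhibitor of cytokine receptors, rose from 383 ± 26.5 to 713 ± 42.2 CPM (SD, n = 3), and Socs1 from 20.4 ± 1.71 to 54.1 ± 3.7 CPM; in the list of SOCS and other JAK-STAT inhibitors 7 of 14 rose and 2 fell, one of the latter being the phosphatase gene Ptpn6, 2.04-fold lower. The SUMO ligase gene Pias4 rose 1.91-fold. Of 31 tested TGF-β receptors, SMADs and feedback genes, 14 rose and 5 fell (9 rose and 7 fell on log2(TPM + 0.1)). Tgif1, a SMAD corepressor, rose 2.88-fold, Acvrl1, a type I receptor, 2.35-fold, and Klf10, a TGF-β-inducible factor, 2.15-fold, where LPS alone lowered Klf10. The feedback inhibitor Smad7 went from 5.17 ± 1.18 to 8.59 ± 1.27 CPM, a rise that missed the test without cytokine replicate 1 (adjusted p = 0.082, edgeR). Id1, an inhibitor of basic helix-loop-helix factors, fell from 54.7 ± 2.42 to 21.0 ± 3.67 CPM, and Tgfb1 was at 6.96 ± 1.27 and 4.74 ± 1.08 CPM, which did not pass the test with all libraries and was called lower in a fit of the 6 alone (adjusted p = 0.045, edgeR).

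Molecules linked to tolerogenic function were mixed. Of 27 tested, 10 rose and 4 fell, where 23.9% of all genes rose and 23.1% fell. Cd274, which encodes the inhibitory ligand PD-L1, was at 200, 180 and 118 CPM with cytokines and at 771, 666 and 587 CPM with LPS added, 4.07-fold higher, against a 7.93-fold rise with LPS alone; the difference was -0.96 ± 0.28 (SE) on the log2 scale (adjusted p = 0.019, edgeR). Arg2, the mitochondrial arginase, rose from 34.5, 33.7 and 28.6 to 203, 201 and 162 CPM, and Hmox1, the inducible haem oxygenase, from 638 ± 93.5 to 2573 ± 219 CPM (SD, n = 3). Lilrb3, an inhibitory receptor, rose 1.70-fold. Ahr, the aryl hydrocarbon receptor, fell 3.29-fold. Havcr2, which encodes TIM-3, was at 25.5, 24.7 and 8.96 CPM and at 30.4, 29.2 and 12.7 CPM, and Bag6, a cytosolic chaperone partner of TIM-3, at 26.1 ± 0.258 and 26.5 ± 1.82 CPM; neither passed the test.

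Cd40, Cd80 and Cd86, costimulatory genes that mark maturation, did not pass the test with all libraries, and for Cd40 this rested on 1 library. Cd40 was at 14.9, 1.18 and 1.73 CPM with cytokines and at 8.69, 6.07 and 7.94 CPM with LPS added, where LPS alone took it from 3.89 ± 2.51 to 171 ± 18.2 CPM (SD, n = 3); without cytokine replicate 1 its log2 fold change was 2.37 ± 0.47 (adjusted p = 0.0011). Cd80 was at 8.74 ± 2.59 and 7.47 ± 1.46 CPM and Cd86 at 51.3 ± 7.93 and 26.8 ± 10.4 CPM, neither of which passed the test, while LPS alone raised them 2.92-fold and 3.54-fold. In a fit of the 6 libraries alone Cd86 was called lower (log2 fold change -0.93 ± 0.29, adjusted p = 0.042, edgeR). The differences between the responses were -5.05 ± 0.96, -1.76 ± 0.39 and -2.76 ± 0.61 (SE) on the log2 scale for Cd40, Cd80 and Cd86, with adjusted p-values of 0.0024, 0.0034 and 0.0063 (edgeR). The medium libraries spread widely, at 1.01 to 5.60 CPM for Cd40 and 13.7 to 71.2 CPM for Cd86. Over the 23 tested costimulatory and inhibitory ligands 9 rose and 2 fell. Cd200, a ligand of an inhibitory receptor, rose 5.27-fold and Icam1, the ligand of LFA-1, 1.93-fold; Hmgb1, a nuclear protein that acts as an alarm signal outside cells, fell 2.27-fold. Of 24 genes of mature migratory dendritic cells 5 rose and 5 fell (5 and 3 without cytokine-plus-LPS replicate 2). These counts lay near the 23.9% and 23.1% of all genes, and the median log2 fold change was -0.155. Traf1, Birc3, Relb and Gpr132 were among the rises at 4.20-fold, 2.22-fold, 1.91-fold and 2.20-fold. The lowest log2 fold change, -3.27, was that of Ccl22, whose fall rests on cytokine replicate 1.

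Genes of both antigen presentation pathways were measured. Of 17 tested genes of class I and the immunoproteasome, 12 rose and 2 fell (median 0.36); on log2(TPM + 1) 8 rose and 4 fell. The peptide transporter gene Tap1 was at 228, 222 and 184 CPM with cytokines and at 479, 451 and 471 CPM with LPS added, 2.21-fold higher, and Tapbp, Tapbpl and H2-K1 rose 1.92-fold, 1.67-fold and 1.73-fold. For class II, 3 of 18 rose and 4 fell, with 3 and 2 without cytokine replicate 1 or cytokine-plus-LPS replicate 3, 2 and 2 without cytokine-plus-LPS replicate 2, and 1 and 3 without cytokine replicate 3. These counts lay near or below the 23.9% and 23.1% of all genes and are no result about the list. H2-Aa, H2-Ab1 and Cd74, the chains of I-A and the invariant chain, which were named after their values were seen, were at 286 ± 52.7, 520 ± 68.9 and 484 ± 98.5 CPM with cytokines (SD, n = 3) and at 229 ± 48.1, 502 ± 66.5 and 416 ± 89.4 CPM with LPS added, and in each case the libraries overlapped. In medium they were at 1170 ± 548, 1747 ± 750 and 2935 ± 1016 CPM. Ciita, the master regulator of class II, fell 2.02-fold, from 11.2 ± 2.62 to 5.48 ± 1.1 CPM, but without cytokine replicate 1 its log2 fold change of -0.82 ± 0.36 did not pass the test (adjusted p = 0.086, edgeR). H2-DMa and H2-DMb2, which load peptides, fell 1.54-fold and 2.25-fold, while March1, a ubiquitin ligase that removes class II from the surface, rose 2.46-fold and Ctss, a protease of the pathway, 1.37-fold.

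Glycolytic genes rose with LPS in the presence of the cytokines. Of 31 tested glycolytic enzymes and HIF targets 22 rose and none fell, with a median log2 fold change of 0.53; with LPS alone 9 rose and 6 fell (median 0.04; 8 and 13 on log2(TPM + 1)). The difference was positive for 15 and negative for 5 of the 31, against 8.88% and 12.1% of all genes. Without LPS, every cytokine library was below every medium library for 15 of the 31 (48.4%, against 23.2% of all genes) and above for 4. With LPS, every cytokine-plus-LPS library was above every LPS-only library for 15 (against 25.5% of all genes) and below for 4. Pfkfb3 was at 49.1, 44.8 and 34.7 CPM with cytokines and at 373, 295 and 311 CPM with LPS added, and it also rose with LPS alone (3.00 ± 0.18 against 2.93 ± 0.17 on the log2 scale, SE). Hk2, hexokinase 2, rose 2.19-fold, Ankrd37 4.39-fold and P4ha1, a collagen prolyl hydroxylase, 1.97-fold. Ldha, lactate dehydrogenase A, was at 3704, 3897 and 3430 CPM and at 5858, 5435 and 6133 CPM, 1.58-fold higher, against 1.09-fold with LPS alone, which did not pass the test; the difference was 0.53 ± 0.14 (adjusted p = 0.01, edgeR). Gapdh rose 1.37-fold, from 8575 ± 464 to 11777 ± 476 CPM (SD, n = 3), with 8385 ± 520 CPM in medium and 7957 ± 820 CPM with LPS alone.

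Genes of mitochondrial metabolism fell or did not pass the test. Of 38 tested genes of the TCA cycle and respiratory chain none rose and 20 fell (median -0.26), and 27 fell with LPS alone. Idh3a, a subunit of NAD-dependent isocitrate dehydrogenase, was at 59.6, 58.3 and 85.8 CPM with cytokines and at 18.6, 17.8 and 17.4 CPM with LPS added, 3.78-fold lower. Suclg2, Fh1 and Idh2 fell 2.09-fold, 1.95-fold and 1.62-fold. In the list of arginine, tryptophan and itaconate metabolism 6 of 14 rose and 3 fell. Nos2, the inducible nitric oxide synthase, was at 231, 223 and 135 CPM and at 701, 642 and 579 CPM, 3.26-fold higher, against 36.6-fold with LPS alone. Irg1, which makes itaconate, rose from 409 ± 132 to 1014 ± 180 CPM (SD, n = 3) and reached 3026 ± 193 CPM with LPS alone. The cationic amino acid transporter Slc7a2 rose 2.86-fold and Slc7a1 fell 2.52-fold. Arg1 was at 5646 ± 986 and 7064 ± 454 CPM and did not pass the test, but was called higher in a fit of the 6 libraries alone (log2 fold change 0.32 ± 0.11, adjusted p = 0.031, edgeR).

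Lipid genes changed in both directions. Of 36 tested genes of cholesterol synthesis, uptake and efflux 9 rose and 14 fell, where 23.9% of all genes rose and 23.1% fell. Abcg1, a cholesterol exporter, rose 2.15-fold, while Ch25h, which makes 25-hydroxycholesterol, fell from 83.1 ± 17.2 to 18.6 ± 1.66 CPM (SD, n = 3), and the synthesis enzymes Hsd17b7 and Cyp51 fell 4.08-fold and 2.26-fold. Of 29 genes of fatty acid metabolism and lipid storage 7 rose and 10 fell, and 4 and 8 without cytokine-plus-LPS replicate 1. Fasn, fatty acid synthase, was at 41.1, 31.7 and 48.7 CPM and at 7.97, 9.93 and 8.44 CPM, and Lpl, lipoprotein lipase, fell 1.71-fold. Acsl1 and Hilpda, an inhibitor of triglyceride breakdown, rose 2.85-fold and 2.23-fold. Among 17 prostaglandin and leukotriene genes 3 rose and 6 fell, with Alox5, 5-lipoxygenase, 2.49-fold lower, the EP4 receptor gene Ptger4 1.81-fold lower and Pla2g7 3.07-fold higher.

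Most genes of iron, haem and redox defence and of lysosomes that passed the test rose. Of 31 genes of iron, haem and redox defence 20 rose and 2 fell (median 0.61), among them Hmox1, Fth1, Sod2, the mitochondrial superoxide dismutase (2.57-fold), and Cat, catalase (1.63-fold). Hmox1 was at 734, 635 and 547 CPM with cytokines and at 2711, 2321 and 2687 CPM with LPS added. Of 31 lysosomal enzymes and cathepsins 18 rose and none fell (median 0.40). Gla, α-galactosidase A, rose 2.45-fold, and Ctsb and Ctsz rose 1.68-fold each. In the glucocorticoid and steroid response list 7 of 17 rose and 4 fell; the metallothionein genes Mt1 and Mt2 rose 1.78-fold and 2.79-fold and Per1 1.89-fold, while Fkbp5 fell 2.20-fold.

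Proliferation genes fell under both conditions. Of 40 tested cell cycle and replication genes 3 rose and 34 fell, with a median log2 fold change of -1.76 (-1.35 with LPS alone, where 32 fell). Mcm6, part of the replicative helicase, was at 109, 114 and 155 CPM with cytokines and at 20.7, 17.2 and 21.0 CPM with LPS added, 6.42-fold lower. Ccnb2, Tk1 and Cdk1 fell 6.16-fold, 5.63-fold and 4.99-fold, and in no case did the libraries overlap. Of 28 genes of Myc and ribosome biogenesis 2 rose and 23 fell (median -1.49), with Nop56 5.02-fold and Npm1 1.92-fold lower. Ribosomal proteins followed at a smaller size: 30 of 35 fell and none rose (median -0.50), for instance Rpl3, from 1077 ± 48.7 to 516 ± 25 CPM (SD, n = 3), Rpl10a, Rpl14 and Rpl8. None of these 35 genes had a called difference between the 2 LPS responses. In the ATF4 and endoplasmic reticulum stress list 10 of 34 rose and 13 fell, with the serine synthesis gene Psat1 4.96-fold and Sdf2l1 2.21-fold lower and the amino acid transporter chain Slc3a2 1.98-fold higher.

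Receptors for microbes and for uptake changed in both directions. Of 28 Toll-like and NOD-like receptors and inflammasome genes 10 rose and 4 fell (on log2(TPM + 1), 6 rose and 5 fell; 2 fell without cytokine replicate 1 or 2 or cytokine-plus-LPS replicate 1), with the inflammatory caspase genes Casp4 and Casp1 1.98-fold and 1.87-fold and Tlr6 1.87-fold higher, and Nlrx1 2.10-fold lower. Of 23 C-type lectin and scavenger receptors 6 rose and 9 fell. Clec4d rose 2.12-fold, whereas Clec10a, Clec4b1 and Clec12a fell 4.45-fold, 4.81-fold and 2.11-fold. Clec10a and Mgl2, both lectins of type 2 conventional dendritic cells and macrophages, were at 11 ± 1.12 and 62.3 ± 4.88 CPM with cytokines (SD, n = 3) and at 2.45 ± 0.75 and 13 ± 3.44 CPM with LPS added. Of 19 Fc and complement receptors and components 8 rose and 6 fell (6 rose and 7 fell on log2(TPM + 0.1)); the inhibitory Fc receptor Fcgr2b rose 2.01-fold, C3ar1 2.12-fold, while Fcgrt and C1qb fell 2.12-fold and 2.25-fold. Among macrophage genes Csf1r, the M-CSF receptor, rose 1.66-fold and Axl fell 2.02-fold; Sepp1 fell 1.58-fold.

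Among 17 colony-stimulating factors and growth factor receptors 4 rose and 5 fell, near the shares of all genes (23.9% and 23.1%). Csf1, which encodes M-CSF, was at 73.1, 82.0 and 60.8 CPM with cytokines and at 33.9, 27.3 and 33.4 CPM with LPS added, 2.28-fold lower, where LPS alone raised it 1.93-fold; Hbegf fell 2.14-fold. Of 31 adhesion and matrix genes 11 rose and 11 fell (11 and 6 without cytokine-plus-LPS replicate 2, 8 and 7 without cytokine replicate 3), with Timp1, an inhibitor of metalloproteinases, 4.57-fold and Adam17, which sheds TNF, 1.51-fold higher and Fn1, fibronectin, 2.57-fold lower. Of 26 genes of the BCL-2 family and cell death 15 rose and 4 fell (9 and 6 on log2(TPM + 1)). Fas, Mlkl and Cflar, which encodes the caspase-8 inhibitor c-FLIP, rose 3.17-fold, 2.25-fold and 2.03-fold. Of 31 purine, cyclic AMP and GPCR signalling genes 11 rose and 11 fell, with Adora2b and P2ry2 2.01-fold and 2.44-fold higher and Gpr183, an oxysterol receptor, 6.16-fold lower. Among 22 acute phase and secreted defence proteins 6 rose and 3 fell (median -0.265; 6 rose and 6 fell on log2(TPM + 0.1)), near the shares of all genes. Cfb, complement factor B, went from 718, 418 and 280 to 2339, 1901 and 2555 CPM, and Slpi and Hp, haptoglobin, rose 4.64-fold and 2.44-fold. Lcn2, a siderophore-binding protein on the neutrophil marker list, rose from 550 ± 112 to 2833 ± 250 CPM (SD, n = 3), while 3 other neutrophil genes, Fcnb, Ms4a3 and Prtn3, fell 1.43-fold, 2.38-fold and 1.64-fold; none of the neutrophil list was called lower without cytokine replicate 3 or without cytokine-plus-LPS replicate 3.

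**Figure D4:**
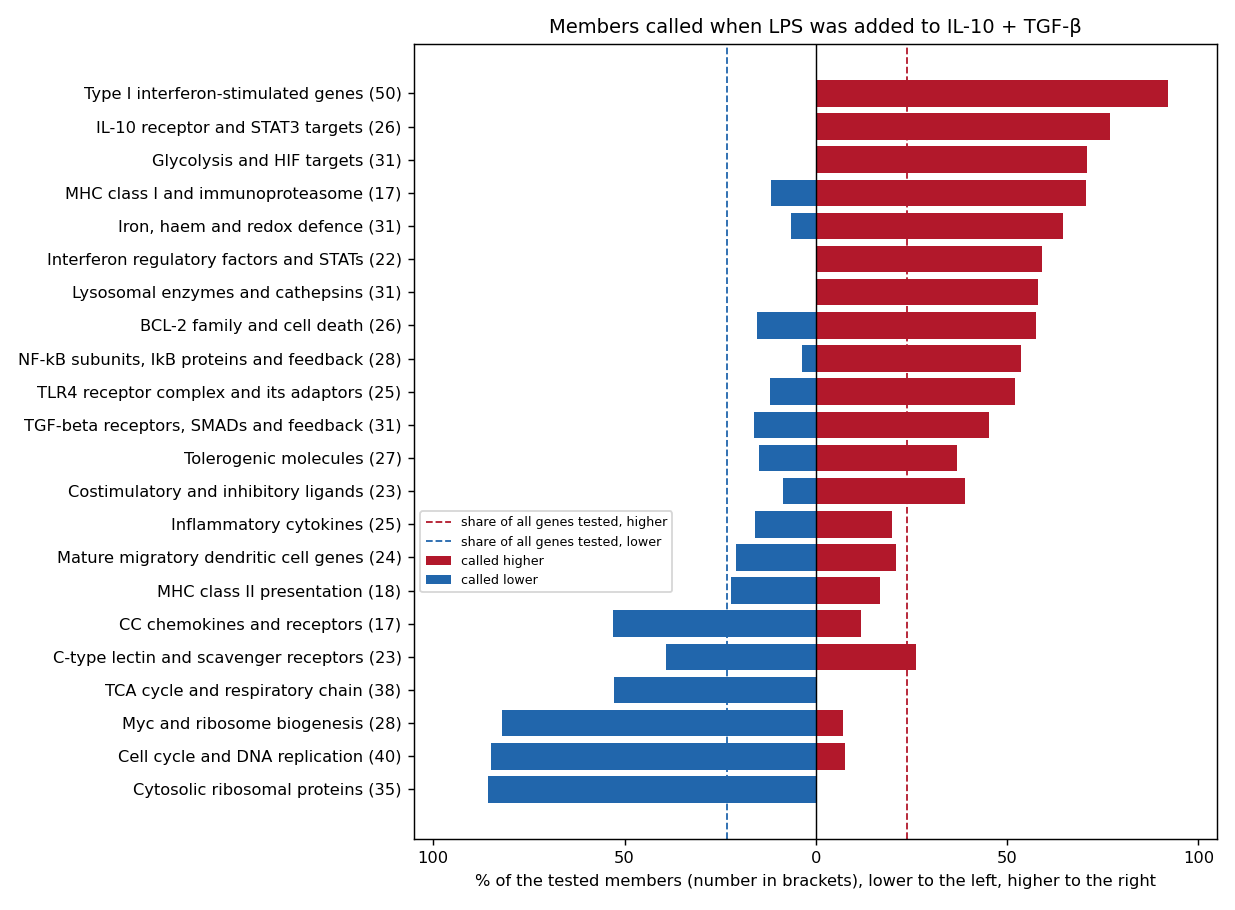
Share of each list's tested members (number in brackets) that rose (right) or fell (left) when LPS was added to IL-10 and TGF-β, with dashed lines at the share of all genes tested, 23.9% and 23.1%. Interferon-stimulated genes, STAT3 targets and glycolysis lie far to the right, and ribosomal proteins, cell cycle and Myc genes to the left.

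Set beside the response to LPS without cytokines, which shares no library with it, the response in the presence of IL-10 and TGF-β had fewer called genes: 5575 against 6969 (58.7% of the genes tested). Of the 2836 genes that rose, 2029 (71.5%) also rose with LPS alone, which is 57.4% of the 3537 (29.8% of all genes) that did so. Of the 2739 that fell, 2063 (75.3%) also fell with LPS alone, or 60.1% of 3432 (28.9%). With upper-quartile scaling 2928 genes rose and 4073 fell with LPS alone, and on log2(TPM + 1) 2305 and 4715. The difference between the responses passed the interaction test for 2487 genes (20.9%), positive for 1055 (8.88%) and negative for 1432 (12.1%); with upper-quartile scaling these were 1466 and 1166, so the larger side depends on the scaling. Among the 3537 genes raised by LPS alone, 1224 (34.6%) had a called difference that opposed the rise and 43 one that added to it; both counts share the libraries without cytokines. Their median log2 fold change was 0.86 without cytokines and 0.46 with them. These genes were chosen by their rise without cytokines, which favours a larger value there and differences that oppose the rise. Opposite calls were made for 78 genes that rose with cytokines and fell without, and for 119 that did the reverse. The difference was called in all of them, which follows closely from opposite calls in one fit and adds no support. Tnf, Il1b, Osm, Ccl2, Ccl4, Ccl7, Csf1, Egr1 and Nr4a1 were among the 119, and Csf1r, Klf10 and Smtnl2 among the 78.

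**Figure D5:**
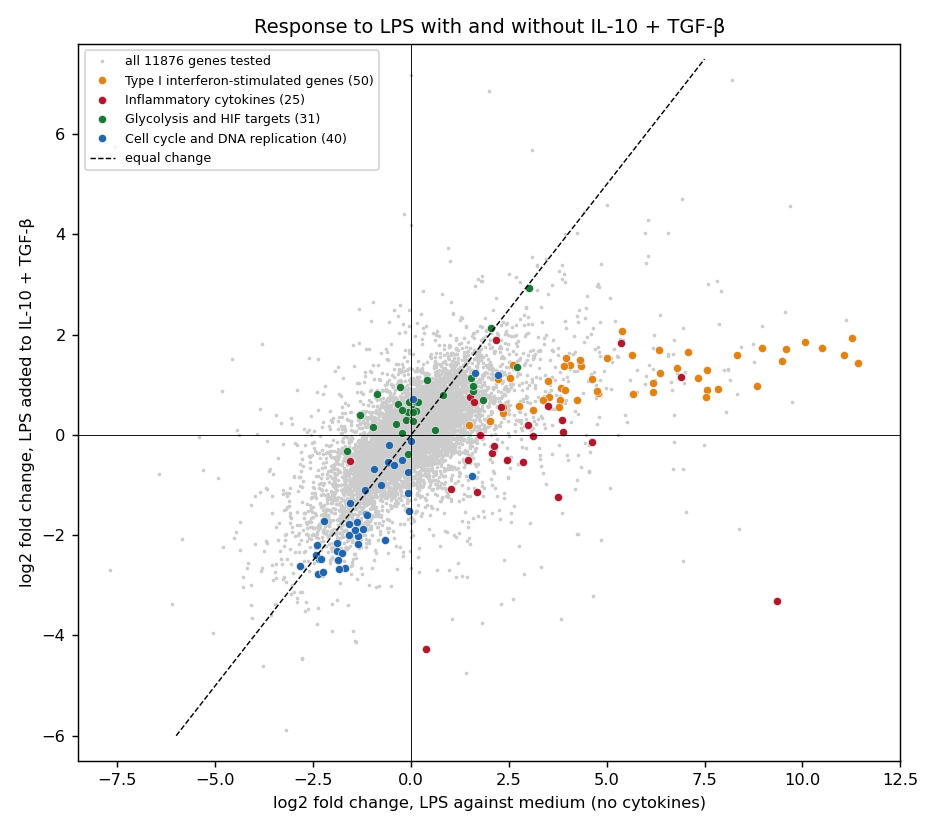
Log2 fold change with LPS added to IL-10 and TGF-β (y axis) against that of LPS over medium (x axis) for all 11876 genes tested (grey), with 4 lists in colour and a dashed line where both are equal. All 50 interferon-stimulated genes lie to the right of the dashed line, at a median of 4.88 on x and 1.12 on y, and the glycolytic genes have medians of 0.04 and 0.53.

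Some genes fell with LPS alone and did not pass the test when the cytokines were there. Il1rl1, which encodes the IL-33 receptor ST2, was at 18.2 ± 3.69 CPM in medium and 0.412 ± 0.121 CPM with LPS alone (SD, n = 3), but at 1.73 ± 0.625 and 1.66 ± 0.567 CPM in the 2 groups with cytokines, so its large difference of 5.38 ± 0.53 (SE, log2 scale) comes with low counts in both of them. Lifr, the leukaemia inhibitory factor receptor, was at 11.9, 12.7 and 11.9 CPM with cytokines and at 14.6, 19.3 and 12.2 CPM with LPS added, whereas LPS alone took it from 17.1 ± 0.51 to 2.05 ± 0.852 CPM. Angptl4, an inhibitor of lipoprotein lipase, was at 43.1 ± 3.63 and 37.8 ± 1.66 CPM, against a fall from 8.49 ± 1.83 to 0.861 ± 0.445 CPM without cytokines, and Etv1 and Klrb1b did not pass the test with cytokines either, although Etv1 was called higher in a fit of the 6 libraries alone (adjusted p = 0.032, edgeR). Matk and Cdca7 fell in both conditions, by 0.78 and 1.40 on the log2 scale with cytokines and by 3.52 and 4.09 without. Smtnl2 rose 4.85-fold with cytokines, from 0.776, 2.45 and 1.15 to 5.82, 10.3 and 5.53 CPM, and fell with LPS alone.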

How the data were processed

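RNA of 18 libraries was measured by bulk RNA-seq; the 6 compared here, and the 6 wild-type libraries with medium or LPS alone, have 3 libraries per group, assigned from the labels' treatment field. The authors deposited RSEM expected counts and TPM per gene for mm10, per the file headers and the submitters' processing notes; the series' design text names other aligners, and no strand setting is stated there, so reads of a gene and of its antisense partner cannot be told apart. Expected counts were rounded to whole numbers, filtered with filterByExpr, scaled by TMM and fitted over all 18 libraries and 6 groups with edgeR 4.0.16 (robust quasi-likelihood test, R 4.3.3), with Benjamini-Hochberg adjustment over all 11876 genes tested; an SE is the log2 fold change divided by the square root of F. The common biological coefficient of variation was 0.133. The deposited TPM values were used in alternatives only, as log2(TPM + 1) and log2(TPM + 0.1) with limma 3.58.1; DESeq2 1.42.0, other scalings and filters, a replicate block, fits of fewer groups and leaving out each library were the others.

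Genes were named by a rule: the 15 largest rises and falls whose log2 CPM averaged 2 or more, with no overlap of libraries, in each of 47 lists the 4 called members of lowest p, or 2 members if no call was made, a list of readouts, the 8 largest differences in each direction and the 6 most abundant called genes in each direction; 13 further genes were named after their values were seen. Members and lists were chosen with earlier results of these data known. On simulated counts for the comparison of LPS added to cytokines over 11876 genes, the test called 28.8% of the 59 genes given a 1.5-fold change, 64.9% of the 74 given 2-fold and 89.6% of the 67 given 4-fold, with 3 false calls in 128. Only these few genes were given a change, whereas 46.9% were called in the data, and no library was made to stand apart. The simulated rates therefore cannot be carried over to the real comparison. Promoter windows and gene accessions came from RefSeq (GRCm38.p6), to which 11740 of the 11876 genes matched. Results for a few genes are not reported here.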

Additional observations from a re-analysis of the deposited data

Results flagged for a closer look

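The response to LPS with IL-10 and TGF-β differed from that without them by the interaction test (edgeR's quasi-likelihood test, Benjamini-Hochberg adjusted p under 0.05) for 2487 genes. The values below are differences on the log2 scale, with cytokines minus without, for the named genes in which this test passed. Positive differences were 5.38 for Il1rl1, 3.39 for Lifr, 3.31 for Smtnl2, 3.09 for Angptl4, 2.88 for Etv1, 2.75 for Matk, 2.72 for Klrb1b, 2.69 for Cdca7 and 0.43 for Tlr4.

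Among interferon-stimulated genes and their regulators the difference was -9.98 for Oasl1, -9.47 for Rsad2, -9.31 for Ms4a4c, -8.82 for Apol9b, -8.77 for Ifi44, -8.22 for Ifit3, -7.87 for Ifit2, -6.92 for Irf7 and -6.68 for Cxcl10. Among cytokines it was -12.67 for Il12b, -5.76 for Il12a, -4.997 for Il10, -3.81 for Il6, -3.56 for Il27, -3.53 for Il23a, -2.93 for Il1b and -2.09 for Tnf. Among chemokines it was -5.87 for Ccl22, -3.37 for Ccl17 and -2.13 for Ccl3. Costimulatory genes had -5.05 for Cd40, -2.76 for Cd86, -1.76 for Cd80 and -0.96 for Cd274. Nos2, Irg1, Socs3 and Stat3 had -3.49, -2.76, -1.74 and -0.88. Those of Il12b, Ccl22, Ccl17, Cd40 and Il12a involve the cytokine library that stands apart. Every difference also uses medium replicate 3, which was at least 4-fold below both other medium libraries for 71 genes. In medium, Ccl22, Cd40 and Cd86 ranged over 187 to 827, 1.01 to 5.60 and 13.7 to 71.2 CPM.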

How the results depend on the processing

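For LPS added to cytokines the count of 5575 genes was 4572 to 5096 when 1 of the 6 libraries was left out, and 5244 to 6097 under the other alternatives that kept the call rule; requiring at least 2-fold left 1693. For LPS without cytokines 6969 became 2961 at 2-fold. On log2(TPM + 1) the split was 1919 higher and 3462 lower with cytokines and 2305 and 4715 without; upper-quartile scaling gave 2928 and 4073 without cytokines. The difference, 1055 higher and 1432 lower, became 1466 and 1166 with upper-quartile scaling and 1419 and 1113 on log2(TPM + 1), so its split is not independent of the scaling. Leaving out 1 library put Ccl22 between -3.84 and 0.75 and Il12b between -4.18 and 2.05, both highest without cytokine replicate 1; the fall of Ccl22 also missed the test with the block, on both TPM scales and in the fits of fewer groups. Without that library Ccl5, Ccr7, Cd40 and Il12a passed as rises. With LPS alone Cat was -0.0062 on both log2(TPM + 1) and log2(TPM + 0.1). Of 235 named genes, 203 kept their call for LPS added to cytokines under all alternatives run and 32 did not, among them Stat3, Il1b, Cxcl10, Ciita, Smad7, Matk, Pecam1, Ctss, Fcnb, Ms4a3 and Prtn3, whose calls were lost without 1 or another library; the cause was not tested. A replicate block gave 5690 genes; same-numbered libraries of the 2 groups correlated at 0.164, 0.013 and 0.065 in their deviations from the group means, so the numbers were not taken as pairs, and not every library correlated best with its own number. Alternatives without Rn45s, and with wild-type groups only, were chosen after seeing the data. Low counts limit Il10, Il12b, Il23a and Cxcl9.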
